A study of Mus musculus with 6 samples.

Results

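The genes described here encode the enzymes of fatty acid oxidation, a ketogenic enzyme and other targets of the nuclear receptor PPAR-alpha, followed in liver from wildtype mice and from mice deficient in Ugcg. Ugcg encodes UDP-glucose ceramide glucosyltransferase, which starts the synthesis of glucosylceramide-based glycosphingolipids. The members were a list of 37 gene symbols, and those with a row in the expression table under that symbol were used. These were 35 of the 37, out of 16331 gene probe sets in all (17 mitochondrial, 9 peroxisomal, 1 ketogenic and 8 others); Acsl1 and Hadhb were not analysed here. Total RNA from 6 liver samples was hybridised to Affymetrix arrays, 3 labelled wildtype (426, 428 and 430) and 3 labelled Ugcg-deficient (427, 429 and 431, called knockout arrays). For strain, sex, age, feeding state and the promoter or Cre line behind the deficiency, nothing is given in the sources used here. Nothing says that each array is a separate animal, so the p-values measure the spread between these arrays, which may be technical.

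Long-chain fatty acids enter hepatocytes, are activated to acyl-CoA, cross into mitochondria as carnitine esters and are shortened there by a repeating cycle of dehydrogenation, hydration, oxidation and thiolysis. Peroxisomes shorten very long chains with a parallel set of enzymes and hand the products on. The liver turns much of the resulting acetyl-CoA into ketone bodies during fasting, and PPAR-alpha, a receptor for fatty acids that pairs with RXR, switches on many of these genes in that state. Its response element is a direct repeat of a hexamer with a spacer of 1 base.

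Of the member promoters, 5 held a near match to that element, and these are shown as the stretches of member sequence closest to it. The search was for AGGTCA, any 1 base and AGGTCA again, on both strands and with at most 2 mismatches, in RefSeq promoters of build GRCm38.p6 that run from 250 bases before to 50 after the start site. Capitals mark letters equal to the element, and each is written 5′ to 3′ on the strand of the match.
Fabp1, chr6:71199812-71199824, minus strand: AGGcCAtAGGTCA
Acot4, chr12:84038366-84038378, minus strand: cGGcCAaAGGTCA
Cd36, chr5:17835947-17835959, plus strand: AaGTCAgAGGcCA
Etfa, chr9:55512308-55512320, plus strand: AGGgCAaAGGTaA
Plin2, chr4:86670272-86670284, plus strand: AGGTCAggGGTCc
The match in Fabp1 had 1 mismatch and began 67 bases before the start site. The other 4 had 2 mismatches, and that of Acot4 began 13 bases before its start. Matches were found in 5 of 34 member promoters (31 genes with an entry), against 3.86% of all 32851 promoters. Such a match is a description of these letters and not a binding site.

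No member passed the test between knockout and wildtype livers. Of the 35 members 0 had a limma adjusted p under 0.05 (values from 0.951 to 1), where 4 of all 16331 probe sets, 0.0245%, passed. At an unadjusted p under 0.05 there was 1 member, Cpt1a, against 4.99% of all probe sets. Cpt1a was also the 1 member whose groups did not overlap, against 9.57% of all probe sets. Each of these is 2.86% of the members, a share that rests on 1 gene and cannot be told apart from the background. Every difference is given as the knockout mean minus the wildtype mean of log2 values; 19 members had a positive and 16 a negative difference, with a median of 0.02 beside 0.01 for all probe sets, of which 52.5% were positive. The widest differences were -0.25 and 0.12. The 95% interval of the difference lay within 0.5 of 0 for 32 of 35 members (91.4%), against 94.7% of all probe sets. Pex11a, Vnn1 and Pdk4 reached beyond it. For those 32 genes, taken singly, the limma intervals leave out a shift of 0.5 or more between these arrays. Most probe sets share this, so it describes the precision of the table and is not particular to the members.

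**Figure D1:**
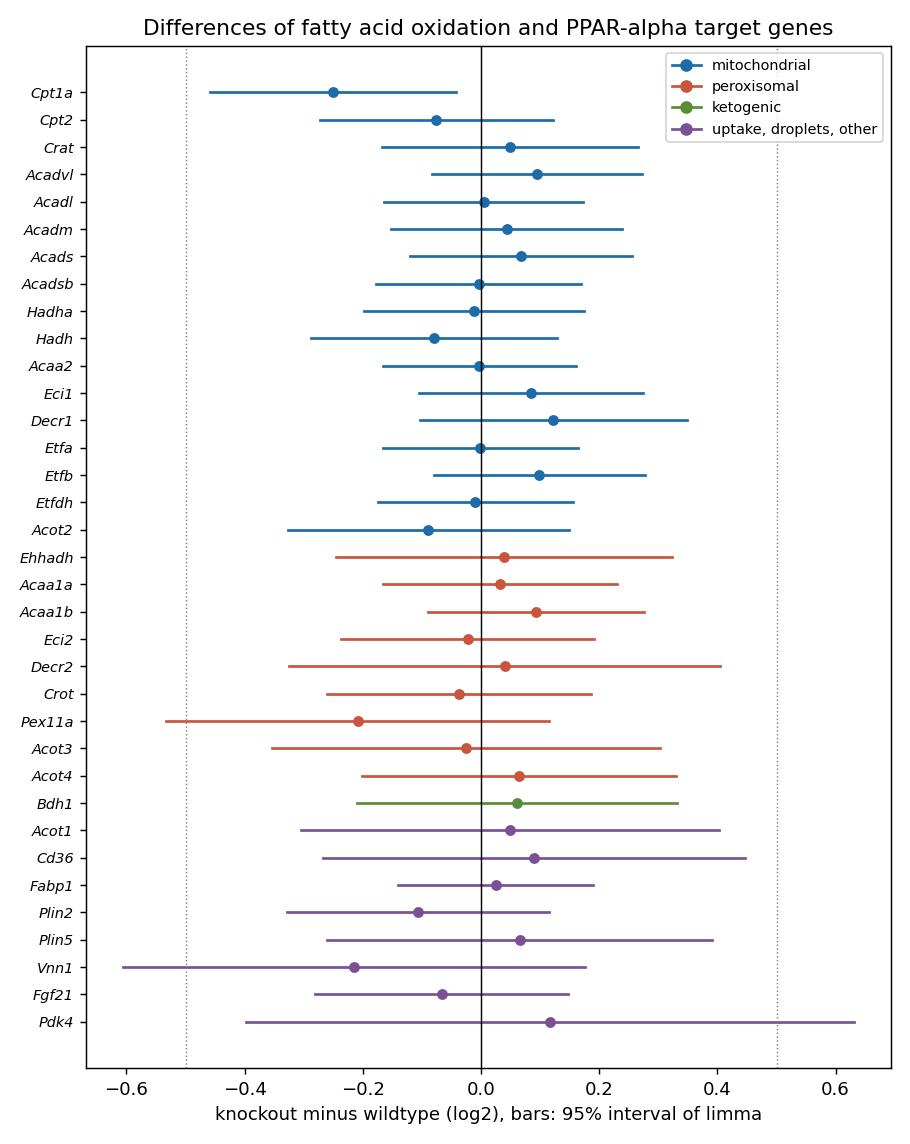
Difference of each of 35 member genes, knockout minus wildtype on the log2 scale (points), with the 95% interval of the limma fit (bars, 3 arrays per group), coloured by class; dotted lines stand at -0.5 and 0.5. The interval of Cpt1a (-0.46 to -0.04) is the 1 that leaves out 0, before any adjustment for the number of genes.

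The classes that the membership rule asks to compare lay close together. The median difference was -0.00 for the 17 mitochondrial members (8 higher, 9 lower), 0.03 for the 9 peroxisomal members (5 higher, 4 lower) and 0.04 for the 8 members of uptake, lipid droplets and other functions (5 higher, 3 lower). Bdh1, the 1 ketogenic member, differed by 0.06. The peroxisomal median was -0.06 without wildtype 430 and -0.03 without knockout 429, and that of the last class -0.04 without wildtype 430 and -0.05 without knockout 431. The classes also had unlike spreads, given here as a description with no test. The median range over the 6 arrays was 0.28 for mitochondrial members, the same as the 0.28 of all probe sets, whereas it was 0.44 for peroxisomal and 0.59 for other members. The range exceeded the median of all probe sets for 9 of 17 mitochondrial, 8 of 9 peroxisomal and 7 of 8 other members.

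Among the genes of the carnitine shuttle, which carries acyl groups into mitochondria, Cpt1a stood lower in the knockout arrays. Cpt1a makes the acylcarnitine at the outer membrane, the controlled step of oxidation that malonyl-CoA inhibits. Its log2 values were 9.91, 10.01 and 9.69 in wildtype 426, 428 and 430, and 9.58, 9.61 and 9.67 in knockout 427, 429 and 431. All knockout values lay below all wildtype values, with wildtype 430 only just above knockout 431. The difference was -0.25 (SE 0.0918, 95% interval -0.46 to -0.04), so that the wildtype level was 1.19-fold that of the knockout; it did not pass (limma unadjusted p = 0.0239, adjusted p = 0.951). The difference ran from -0.34 without wildtype 430 to -0.18 without wildtype 428, and the unadjusted p exceeded 0.05 without wildtype 426 (0.0694), wildtype 428 (0.0947), knockout 427 (0.0646) or knockout 429 (0.0554). Cpt2, which turns acylcarnitine back into acyl-CoA at the inner membrane, differed by -0.08 and Crat, the carnitine acetyltransferase, by 0.05.

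The stretch upstream of the Cpt1a start site is shown because this gene had the smallest p of the members. RefSeq places these 250 bases at chr19:3323051-3323300 of GRCm38.p6, plus strand, and capitals mark CCAAT (1 match) and GGGCGG (2 matches, here on the opposite strand as CCGCCC).
Cpt1a: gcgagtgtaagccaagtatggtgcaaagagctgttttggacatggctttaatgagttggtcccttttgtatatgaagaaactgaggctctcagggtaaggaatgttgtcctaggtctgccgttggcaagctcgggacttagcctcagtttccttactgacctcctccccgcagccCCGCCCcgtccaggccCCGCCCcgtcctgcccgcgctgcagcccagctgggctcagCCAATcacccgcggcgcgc
Searched on both strands, CCAAT occurs in 33.8% and GGGCGG in 32.7% of all promoters over the same 250 bases. No match to the PPAR-alpha element as spelled above was found in the Cpt1a promoter, which says only that these letters are not in this window.

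The enzymes of the mitochondrial cycle itself showed small differences in either direction. The acyl-CoA dehydrogenases open the cycle and are named for the chain length they prefer. Acadm, for medium chains, read 11.91, 11.90 and 11.95 in wildtype and 12.01, 12.09 and 11.80 in knockout arrays, in the order given for Cpt1a. The knockout arrays spread on both sides of the wildtype values, and the difference was 0.04 (95% interval -0.15 to 0.24). Acadvl, for very long chains, differed by 0.09, Acads, for short chains, by 0.07 and Acadl, for long chains, by 0.00. Acadsb, for short branched chains, differed by -0.00.

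The later steps were similar. Hadha, the trifunctional protein subunit with the hydratase and long-chain dehydrogenase, differed by -0.01, Hadh, the short-chain hydroxyacyl-CoA dehydrogenase, by -0.08 and Acaa2, the mitochondrial thiolase, by -0.00. Acaa2 had the narrowest range over the 6 arrays of all members, 0.14. The electron transfer flavoprotein takes electrons from the dehydrogenases; its subunits Etfa and Etfb differed by -0.00 and 0.10, and Etfdh, which passes the electrons to ubiquinone, by -0.01.

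The mitochondrial auxiliary enzymes for unsaturated chains had positive differences that did not pass. Decr1, the mitochondrial dienoyl-CoA reductase, had the most positive difference of the mitochondrial members and read 9.78, 10.05 and 9.84 in wildtype and 9.86, 10.07 and 10.10 in knockout arrays. Wildtype 428 lay above knockout 427, so the groups overlapped, and the difference of 0.12 (95% interval -0.10 to 0.35, limma adjusted p = 0.982) did not pass. Eci1, the mitochondrial enoyl-CoA isomerase, differed by 0.08. Acot2, a mitochondrial thioesterase that frees fatty acids from CoA, differed by -0.09.

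Of the peroxisomal cycle, Ehhadh, Acaa1a and Acaa1b had positive differences that did not pass. Ehhadh, the peroxisomal bifunctional enzyme, read 11.90, 11.49 and 11.39 in wildtype and 11.62, 11.58 and 11.70 in knockout arrays. The wildtype arrays spanned the knockout arrays, with a difference of 0.04 (95% interval -0.25 to 0.32). Acaa1b, a peroxisomal thiolase, read 13.66, 13.47 and 13.45 in wildtype and 13.62, 13.57 and 13.67 in knockout arrays. Wildtype 426 lay among the knockout arrays, and the difference was 0.09 (95% interval -0.09 to 0.28). Its close paralog Acaa1a differed by 0.03; probes of such copies can read both transcripts, and the probe sequences were not used here.

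Pex11a, which drives peroxisome division, had the most negative peroxisomal difference. It read 10.20, 10.42 and 10.43 in wildtype and 10.02, 9.91 and 10.48 in knockout arrays. Knockout 427 and 429 lay below all wildtype arrays, whereas knockout 431 lay above them. The difference was -0.21 (95% interval -0.53 to 0.11, limma adjusted p = 0.982), -0.38 without knockout 431 and -0.10 without knockout 429. Eci2, an enoyl-CoA isomerase, differed by -0.02, Decr2, the peroxisomal dienoyl-CoA reductase, by 0.04 and Crot, which exports shortened chains as carnitine esters, by -0.04. The thioesterases Acot3 and Acot4 differed by -0.02 and 0.06.

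On the ketogenic side Bdh1, which reduces acetoacetate to beta-hydroxybutyrate, read 11.30, 11.33 and 10.90 in wildtype and 11.19, 11.36 and 11.17 in knockout arrays. Wildtype 430 stood apart at the low end, and the other 5 arrays lay between 11.17 and 11.36. The difference of 0.06 (95% interval -0.21 to 0.33, limma adjusted p = 0.995) turned to -0.08 without wildtype 430. Of 7 further genes of ketone body metabolism with a row, 4 had a positive and 3 a negative difference and none passed by limma, with 0 at an unadjusted p under 0.05. Acat1, the mitochondrial acetoacetyl-CoA thiolase, differed by -0.02. Aacs, which reactivates acetoacetate for lipid synthesis, differed by 0.68 (adjusted p = 0.982) over a wide spread, from 8.58 in wildtype 428 to 10.58 in knockout 431, and the monocarboxylate transporter gene Slc16a6 by 0.22.

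**Figure D2:**
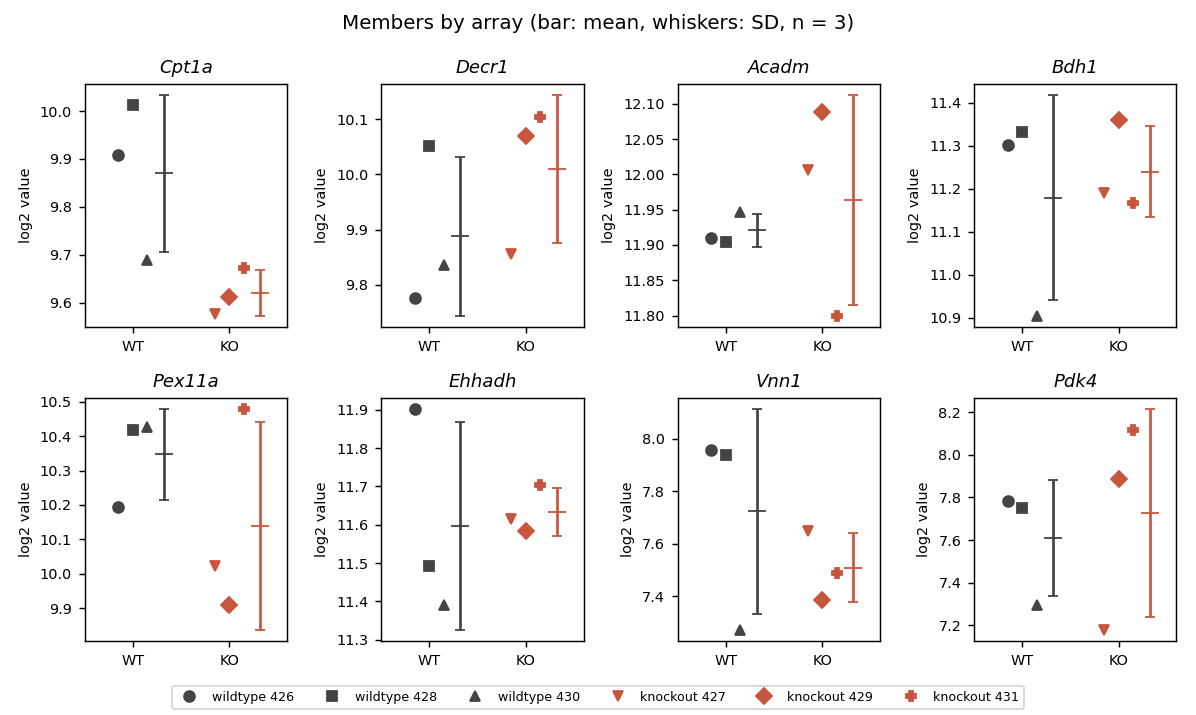
Log2 expression values of 8 member genes on each wildtype (WT, grey) and knockout (KO, red) array, a symbol per array, with the mean and SD of 3 arrays beside them; each panel has its own axis. The groups are apart for Cpt1a, where the lowest wildtype array reads 9.69 and the highest knockout array 9.67, and overlap in the other panels.

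The members outside the oxidation cycle varied most between arrays. Pdk4, the kinase that shuts pyruvate dehydrogenase when fat is burned, had the widest range of all members, 0.94 or 1.92-fold. It read 7.79, 7.75 and 7.29 in wildtype and 7.18, 7.89 and 8.12 in knockout arrays. Wildtype 430 and knockout 427 were low and the other arrays high, and the difference of 0.12 (95% interval -0.40 to 0.63) was 0.39 without knockout 427 and -0.08 without knockout 431. Vnn1, a pantetheinase that recycles the vitamin precursor of CoA, read 7.96, 7.94 and 7.27 in wildtype and 7.65, 7.39 and 7.49 in knockout arrays. Wildtype 426 and 428 lay above all knockout arrays and wildtype 430 below them. Its difference was -0.21 (95% interval -0.61 to 0.18), and -0.44 without wildtype 430.

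Plin5, a droplet protein that ties lipid droplets to mitochondria, read 9.34, 9.42 and 9.51 in wildtype and 9.16, 9.53 and 9.80 in knockout arrays. The knockout arrays held both extremes, and the difference was 0.07 (95% interval -0.26 to 0.39). Plin2, the main coat protein of hepatocyte droplets, differed by -0.11. Acot1, a cytosolic thioesterase, read 8.38, 8.57 and 8.24 in wildtype and 8.30, 8.82 and 8.22 in knockout arrays. Knockout 429 stood apart at the high end, and the difference was 0.05 (95% interval -0.30 to 0.40). Acot1 and Acot2 are near-identical copies, so their values may be mixed.

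Fgf21, the hormone that the liver releases on fasting, read 6.53, 6.60 and 6.60 in wildtype and 6.71, 6.42 and 6.40 in knockout arrays. The knockout arrays lay on both sides of the wildtype arrays, with a difference of -0.07 (95% interval -0.28 to 0.15). Cd36, a fatty acid translocase, differed by 0.09 and ranged from 7.70 in wildtype 430 to 8.28 in knockout 431. Fabp1, the fatty acid binding protein of the hepatocyte cytosol and the gene with the closest match to the PPAR-alpha element, differed by 0.02 (95% interval -0.14 to 0.19) with a range of 0.16.

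Much of the spread among members was between arrays of the same genotype. The lowest of the 6 values fell in wildtype 430 for 13 members (37.1%, against 18.5% of all probe sets) and in knockout 427 for 12 (34.3%, against 18.4%). It fell in wildtype 426 for 4, wildtype 428 for 1, knockout 429 for 2 and knockout 431 for 3 members, where the backgrounds were 17.2%, 14.9%, 15.6% and 15.5%. Set against the mean of the 6 arrays, the median deviation of the members was -0.09 in wildtype 430 and -0.07 in knockout 427, and 0.04, 0.06, 0.03 and 0.04 in wildtype 426, wildtype 428, knockout 429 and knockout 431. The same arrays were low in both main classes: -0.06 and -0.06 for mitochondrial and -0.13 and -0.11 for peroxisomal members. Members share these arrays, so their deviations are not independent.

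**Figure D3:**
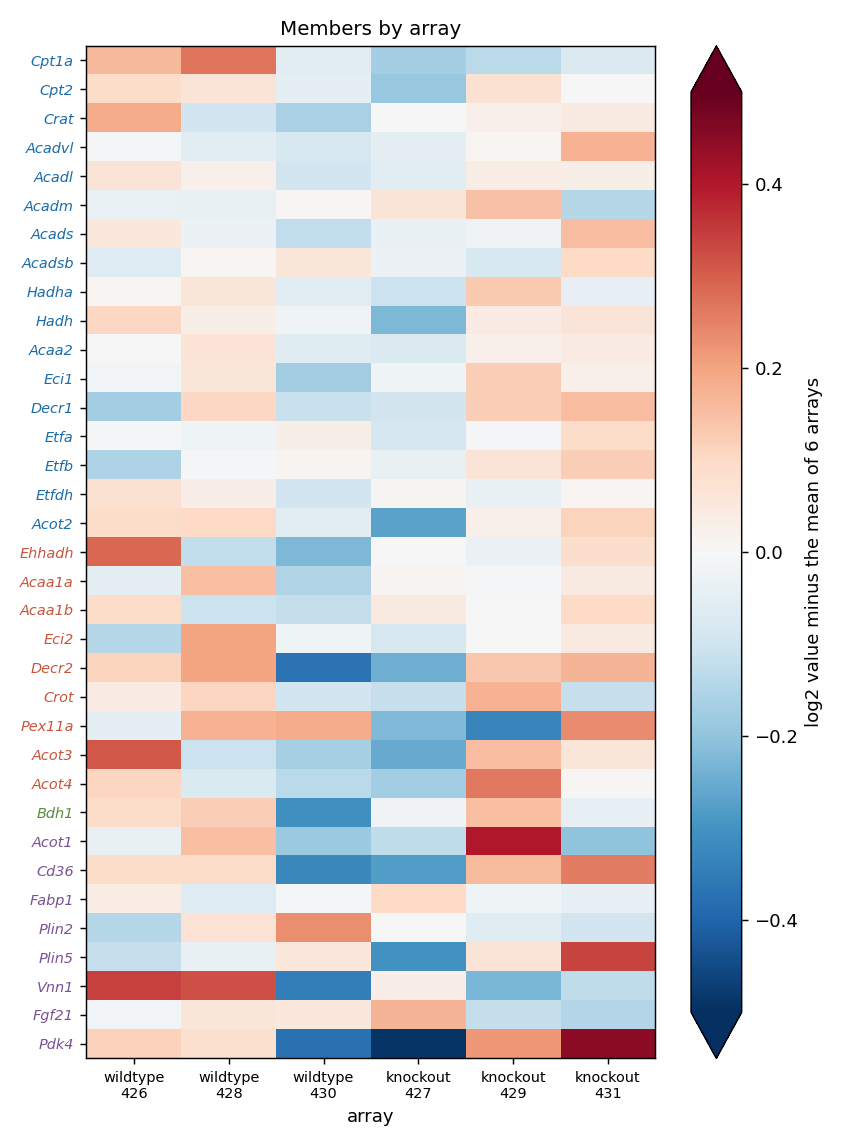
Log2 value of each member gene minus its mean over the 6 arrays, by array (blue low, red high; the scale stops at -0.5 and 0.5), with gene names coloured by class as mitochondrial (blue), peroxisomal (red), ketogenic (green) or other (purple). The columns of wildtype 430 and knockout 427 are mostly blue, and hold the lowest value of 13 and 12 of the 35 members.

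Those arrays also stood apart from the rest over the whole table. Of the variance over all probe sets, 31.5% lay on principal component 1, which placed wildtype 430 at 14.5 and knockout 427 at 11.9, with the other arrays between -9.44 and -3.69. Array medians ran from 6.79 to 6.81 and correlations between arrays from 0.988 to 0.994 across probe sets, which are not replicates. Hepatocyte markers marked every array as liver, with Alb between 14.60 and 14.69. The summed linear signal of 8 exocrine pancreas markers was 6769 in wildtype 430 and between 1372 and 1912 elsewhere. Most of the sum elsewhere was Cela1, at 9.73 to 10.42. The remaining pancreas markers read 8.57 to 10.13 in wildtype 430 and 5.81 to 6.56 on the other arrays. The summed linear signal of 6 skeletal muscle markers was 951 in knockout 427 and between 428 and 461 elsewhere. Of 6 adipocyte markers, 5 were highest in knockout 431, such as Adipoq at 6.92 against 5.81 to 6.10 elsewhere. Car3, the remaining marker, was highest in wildtype 426 (13.84). The summed signal of the 6 was 14766 in knockout 431 and between 12328 and 15193 elsewhere. Most of that sum was Car3, which read 13.52 to 13.84 over the arrays, so the sum says little about the other markers. The mean log2 deviation of the 6 from their wildtype means was 0.51 in knockout 431 and between -0.04 and 0.05 elsewhere. The part of these other tissues in the members' values was not tested, and fewer cells of a type and less RNA per cell cannot be told apart in whole liver. The Ugcg probe set read 6.81, 6.85 and 6.87 in wildtype and 7.12, 6.70 and 6.68 in knockout arrays, a difference of -0.01; where its probes lie relative to the deletion is unknown here, so this probe set checks nothing and every direction rests on the labels.

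With wildtype 430 and knockout 427 both left out, 2 arrays a group remained and still no member passed. The members with the smallest p were then Vnn1 (-0.51, limma unadjusted p = 0.000446, adjusted p = 0.217), Cpt1a (-0.32, adjusted p = 0.507) and Plin5 (0.28, adjusted p = 0.704). Their unadjusted p was under 0.05 and that of the other 32 members was not. Over all 16331 probe sets, 1102 had an unadjusted p under 0.05 in this limma fit and 8 passed. The 2 arrays stood apart in these same data, so a call after leaving them out is no independent support.

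Other genes of the pathway were followed in 8 lists that hold 130 genes, of which 113 had a row. By limma 1 of the 113 passed, and 58 had a positive and 55 a negative difference. An unadjusted limma p under 0.05 was found for 11 (9.73%), against 4.99% of all probe sets. Of these, 4 were among the 11 insulin and feeding responsive genes, and 2 each in the lists of receptors, lipid droplets and uptake. Further mitochondrial genes held 1, and ketone body, peroxisomal and omega oxidation genes 0. Groups did not overlap for 10 (8.85%), against 9.57% of all probe sets. The lists were chosen with earlier results known, so these shares are a description. The gene that passed was G6pc, in the list of insulin and feeding responsive genes and not itself part of fatty acid oxidation. It makes the catalytic subunit of glucose-6-phosphatase and rose by 0.93 (adjusted p = 0.0379). It lost the call without wildtype 426, wildtype 428, knockout 427, knockout 429 or knockout 431 (adjusted p from 0.0617 to 0.206).

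The receptor gene itself gave no difference that passed. Ppara read 9.82, 10.20 and 9.85 in wildtype and 9.81, 10.04 and 10.32 in knockout arrays, a difference of 0.10 (95% interval -0.22 to 0.42, limma adjusted p = 0.987). Of 14 receptors and coregulators 6 had a positive and 8 a negative difference, and none passed. Ppargc1a, the coactivator that raises mitochondrial oxidation, read 7.01, 7.14 and 7.25 in wildtype and 7.01, 6.78 and 6.62 in knockout arrays. Knockout 429 and 431 lay below all wildtype arrays and knockout 427 level with wildtype 426; the difference of -0.33 did not pass (adjusted p = 0.951).

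Lpin1, a phosphatidate phosphatase that also acts as a coactivator of PPAR-alpha, had the largest difference of the 113 genes. It read 10.47, 10.83 and 11.46 in wildtype and 10.85, 9.15 and 8.97 in knockout arrays. Knockout 429 and 431 were over 1 log2 unit below every wildtype array, whereas knockout 427 lay inside the wildtype range. The difference was -1.26 (SE 0.451, 95% interval -2.28 to -0.24), a wildtype level 2.40-fold that of the knockout, and it did not pass (limma adjusted p = 0.951). It was -1.86 without knockout 427 (adjusted p = 0.129) and passed at -1.59 without both knockout 427 and wildtype 430 (adjusted p = 0.0141). Those 2 arrays held the highest Lpin1 value of their genotypes. Leaving them out narrows the spread within both groups, so this pass is a description only. Rxrb, a partner receptor, differed by -0.09 with groups that did not overlap.

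Omega oxidation, which attacks fatty acids from the methyl end and whose Cyp4a genes are classical PPAR-alpha targets, had 5 positive and 3 negative differences among 8 genes, and none passed. Cyp4a10 read 10.59, 10.74 and 9.44 in wildtype and 9.71, 11.68 and 11.51 in knockout arrays. Wildtype 430 and knockout 427 were again the lowest, and the other arrays of each genotype lay more than 1 log2 unit above them. The difference was 0.71 (95% interval -0.44 to 1.86, limma adjusted p = 0.982), and it ran from 0.30 without wildtype 430 to 1.34 without knockout 427. Without both arrays it was 0.93, or 1.90-fold, and passed with 2 arrays a group (limma adjusted p = 0.0346). Leaving out the lowest value of each genotype narrows the spread within both groups, so this pass is a description only. Cyp4a14 read 8.08, 9.02 and 6.90 in wildtype and 7.70, 9.72 and 9.00 in knockout arrays. The low arrays were the same, with a difference of 0.81 (95% interval -0.50 to 2.11) that did not pass with all arrays or without those 2 (0.81, adjusted p = 0.675). Cyp4a genes are close paralogs, and their probes may read each other's transcripts.

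Further mitochondrial genes had 12 positive and 8 negative differences among 20, and none passed. Mlycd, which degrades the malonyl-CoA that inhibits Cpt1a, read 8.81, 8.79 and 8.91 in wildtype and 9.06, 9.16 and 9.03 in knockout arrays. All knockout arrays lay above all wildtype arrays, with a difference of 0.24 (95% interval 0.08 to 0.41) that did not pass (limma adjusted p = 0.951). Acad11, an acyl-CoA dehydrogenase for long chains, differed by 0.09 with groups that did not overlap, and Acsm3, a medium-chain acyl-CoA synthetase, by -0.18. Further peroxisomal genes had 12 positive and 11 negative differences among 23, of which the largest were -0.13 for the peroxin gene Pex16 and 0.12 for the dienoyl-CoA isomerase gene Ech1. Acot8, a peroxisomal thioesterase, differed by 0.10 with groups that did not overlap.

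The list of lipid droplets and lipolysis had 6 positive and 11 negative differences among 17 genes, and none passed. Mgll, which splits monoacylglycerol to glycerol and a fatty acid, had the smallest p of the list. It read 9.70, 9.80 and 9.85 in wildtype and 10.08, 10.36 and 10.37 in knockout arrays, so that the groups were apart. The difference was 0.49, or 1.40-fold (95% interval 0.27 to 0.70, limma unadjusted p = 0.000698, adjusted p = 0.478). Angptl4, a secreted lipase inhibitor and PPAR target, differed by -0.47 (adjusted p = 0.982), from 9.71, 10.56 and 10.34 to 10.25, 9.51 and 9.46. The droplet protein gene Plin3 differed by -0.16 with groups that did not overlap. Lpl, the lipoprotein lipase of muscle and fat, differed by 0.40. It was highest in knockout 427 (8.31), the array with the highest skeletal muscle markers, and the difference was 0.27 without that array. Lpl in knockout 429 (8.05) also lay above every wildtype array, and in knockout 431 (7.77) it did not. The part of muscle tissue in these values was not tested.

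Uptake and activation genes had 7 positive and 6 negative differences among 13, and none passed. Acbd5, a peroxisomal acyl-CoA binding protein, read 11.96, 11.85 and 11.77 in wildtype and 11.31, 11.52 and 11.76 in knockout arrays. The groups did not overlap, although knockout 431 was next to wildtype 430, and the difference was -0.33 (95% interval -0.59 to -0.07, limma adjusted p = 0.951). The acyl-CoA synthetase gene Acsl3 differed by 0.25 and Acbd3, a Golgi acyl-CoA binding protein, by 0.11. Fabp4, the fatty acid binding protein of adipocytes and itself in the adipocyte marker list, differed by 0.49. It was highest in knockout 431 (8.99), the array with the highest Adipoq, and the difference was 0.08 without that array. The part of fat tissue in these values was not tested. Of the insulin and feeding responsive genes 6 had a positive and 5 a negative difference. Beside G6pc these included Elovl6, a fatty acid elongase, at 0.65 with groups that did not overlap (adjusted p = 0.951), Pck1, which makes phosphoenolpyruvate, at 0.38 and Pklr, liver pyruvate kinase, at -0.33.

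**Figure D4:**
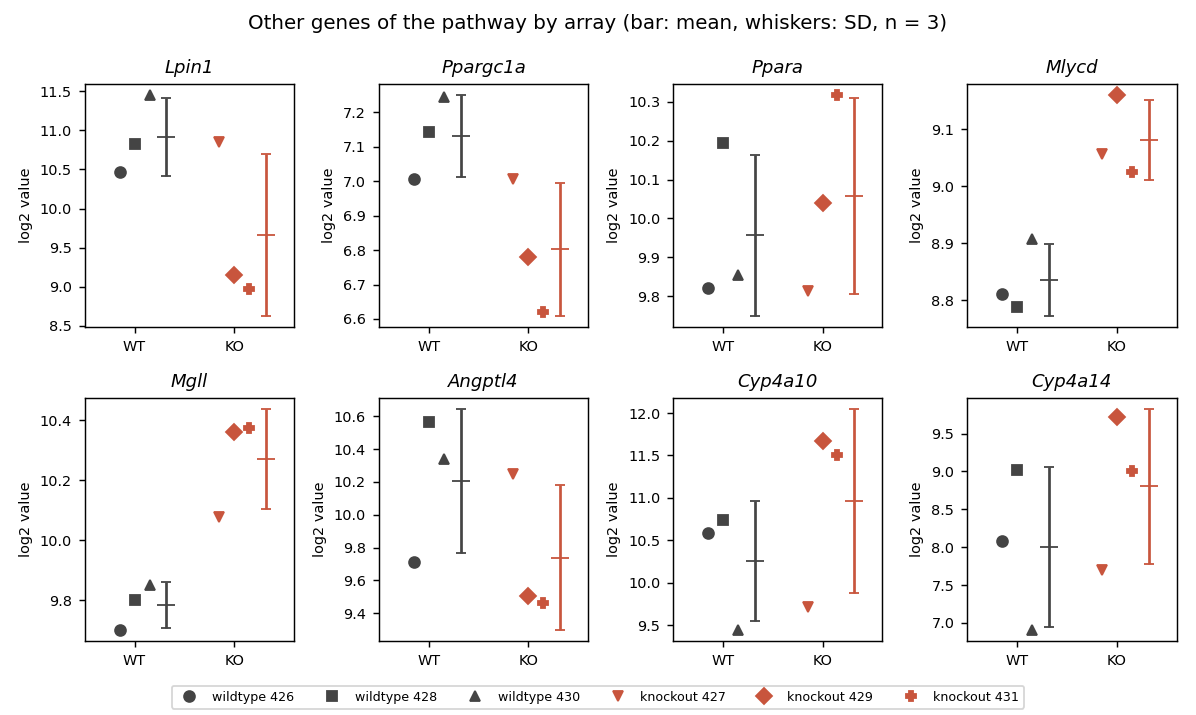
Log2 expression values of 8 further genes of the pathway on each wildtype (WT, grey) and knockout (KO, red) array, a symbol per array, with the mean and SD of 3 arrays beside them; each panel has its own axis. The groups are apart for Mlycd and Mgll, and for Lpin1 knockout 427 lies inside the wildtype range at 10.85 while knockout 429 and 431 read 9.15 and 8.97.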

How the data were processed

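Values in the deposited table run from 5.38 to 14.69 and were taken as log2 expression. Biotinylated cRNA was hybridised per the labels' protocols; which array, background correction, normalization and software made the values is not given in the sources used here, and nothing was rescaled for the comparison. Of 16395 rows, 64 AFFX controls were left out, and 15644 of the remaining 16331 carried a symbol (1 each, none several) in the platform annotation, whose row names are Entrez gene numbers. Rows without a symbol there were tested but not named.

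Knockout and wildtype arrays (3 each) were compared with limma 3.58.1 in R 4.3.3 (lmFit, eBayes, two-sided, 4 residual and 4.85 prior degrees of freedom), adjusting p by Benjamini-Hochberg across the 16331 probe sets, at a threshold of 0.05. The median 95% interval reached 0.192 to either side, and having only 3 arrays a group limits precision; an exact permutation test of 3 against 3 cannot go below 0.1 and was not used. The script was tested on simulated data. Members, classes and lists were chosen with earlier results of these data known; classes follow the known location of each protein. All members were given with their difference. Values on every array were given for members whose groups did not overlap or whose unadjusted p was under 0.05, the 2 largest differences of each class, the 4 widest ranges and 6 textbook genes. Of the pathway lists, genes with an unadjusted p under 0.05, with groups apart, or with the 2 largest differences were named; Ppara, Acat1 and the marker genes were named outside this rule. The CCAAT and GGGCGG searches were added later. Protein sequences were not used here. Figures were drawn with matplotlib 3.10.9.

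Of the marker lists, hepatocyte genes had 4 positive and 3 negative differences, adipocyte 5 and 1 and skeletal muscle 5 and 1. Exocrine pancreas markers had 0 and 8, Kupffer cell 0 and 6, sinusoidal endothelium 2 and 4 and cholangiocyte 4 and 1. Stellate cell markers had 4 and 2, erythroid 0 and 2 and sex-linked transcripts 1 and 2. No marker passed by limma. All 8 exocrine pancreas markers were highest in wildtype 430, and 5 of the 6 Kupffer cell markers were lowest in knockout 431. Markers of a list share these arrays, so the counts are not independent.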

Additional observations from a re-analysis of the deposited data

How the results depend on the processing

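No member passed under quantile normalization, median centring, removal of probe sets up to the 40th percentile, array quality weights, robust variance with an intensity trend, adjustment over named genes, a threshold of 0.1, or without any array; the smallest limma adjusted p of a member over 12 refits was 0.217, and 0 to 3 members had an unadjusted p under 0.05. The count of all probe sets past the threshold, 4, was 8 with array weights, 8 at a threshold of 0.1, 8 without both wildtype 430 and knockout 427, and 0 to 4 without 1 array (584 to 1134 at an unadjusted p under 0.05). The median difference without 1 array ran from -0.0384 to 0.0400 over all members, -0.0190 to 0.0345 for mitochondrial, -0.0638 to 0.106 for peroxisomal and -0.0472 to 0.0526 for uptake, droplet and other members, so no class has a settled sign. The last class turned to -0.0359 without wildtype 430 and -0.0472 without knockout 431, and the peroxisomal median to -0.00824 with array weights. Bdh1 ran from -0.0771 to 0.137 without 1 array and was -0.0527 without both arrays. The cause was not tested. Of the 35 members, 12 kept the sign of their difference over all 6 fits that left out 1 array. No paired analysis was made because the labels do not say whether any arrays are paired. No detection calls were used, so how far low values stand above background is unknown.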
